A study of Homo sapiens with 12 samples.

Results

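The change in gene expression between 30 h and 48 h after a dose of 4 Gy was compared between degron (++) and degron (−) cells. The rule took every library at 4 Gy, which gave 8 of the 12 libraries of the series: degron (++) at 30 h, degron (++) at 48 h, degron (−) at 30 h and degron (−) at 48 h, with 2 libraries in each of these 4 groups. The other 4 libraries were unirradiated (0 Gy) cells of both populations at 48 h, and they were set beside the results without entering the fit. All groups were labelled as PANC-1 cells, a human pancreatic ductal carcinoma line, that carried a retroviral reporter in which the green fluorescent protein ZsGreen is fused to the degron of ornithine decarboxylase (ODC). Degron (−) was the infected line as it stood, which held few ZsGreen-positive cells. Degron (++) was the brightest fraction of a culture enriched by repeated sorting for ZsGreen, so it came from 1 line and 1 enrichment, and both populations were grown under G418. Irradiation was with cesium-137 gamma rays. The 6 libraries taken as degron (−) were ZsGreen-negative in their titles and d+ in their descriptions, and they were taken as degron (−) because that is the population the study compared with degron (++). The labels give the hours without saying from when they were counted. No unirradiated group at 30 h was analysed here, so time since irradiation and time in culture cannot be told apart. The quantity of interest is the change in degron (++) minus the change in degron (−), called the interaction below, on the scale of log2(FPKM + 1), where FPKM is the number of sequenced fragments scaled by transcript length and library size. A negative interaction means that a gene went lower in degron (++), or higher in degron (−), than in the other population.

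The proteasome removes proteins tagged for destruction, and the ODC degron is removed by it without ubiquitin, so a bright cell is one in which little of the reporter is degraded. Several programs named below are well known in pancreatic carcinoma cells. ATF4 is the transcription factor of the integrated stress response, which turns on amino acid transporters, amino acid synthesis enzymes and tRNA synthetases when amino acids run short or proteins misfold. Laminin-332, which holds the chains encoded by LAMA3 and LAMB3, is the adhesive laminin of epithelial basement membranes and anchors cells through the integrin with the beta chain ITGB4. SREBF1 and SREBF2 encode the SREBP factors that drive the synthesis of sterols and fatty acids. Hypoxia-inducible factors (HIF) turn on glycolytic enzymes and genes such as NDRG1 and P4HA1.

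The libraries of the 2 populations differed in ways that bear on every result. The FPKM of a library summed to 872142 to 916877 in degron (++) and to 707273 to 754937 in degron (−) at 4 Gy, and the number of reads behind a value is unknown. Symbols listed at 0 numbered 7268 and 7293 in degron (−) at 30 h and 6957 and 7008 at 48 h. In degron (++) at 4 Gy they numbered 7913 to 8189. The microRNA gene MIR622 alone held 22.5% and 23.3% of the summed FPKM in degron (−) at 30 h and 25.5% and 27.1% at 48 h. In degron (++) at 4 Gy it held 28.6% to 30%. What this adds to the changes below was not tested. Ductal carcinoma markers other than VIM were present in all libraries. At 4 Gy these 8 genes summed to 7724 to 8319 FPKM in degron (++) and 4604 to 5469 FPKM in degron (−). With VIM the sums were 7742 to 8333 and 7313 to 7874 FPKM. Members differed in direction. At 30 h CD44 was at 147 and 146 FPKM in degron (++) and at 352 and 348 in degron (−). SOX9 was at 21.9 and 21.1 FPKM in degron (++) and at 43.8 and 43.9 in degron (−). Acinar and endocrine markers were at or near 0 apart from PRSS3. VIM, the intermediate filament of mesenchymal cells that PANC-1 is known to express, was at 2709 and 2711 FPKM in degron (−) at 30 h and at only 19.2 and 17.8 FPKM in degron (++) at 30 h. CD68 made up the leukocyte and endothelial markers of degron (−) (153.7 to 165.6 FPKM over 9 genes at 4 Gy, against 3.24 to 5.06 in degron (++)), and PTPRC, CD3E, LYZ and PECAM1 were at or near 0 in both. PANC-1 is also known for a loss of both copies of CDKN2A, the 9p21 gene of the p16 inhibitor. The level of CDKN2A in degron (++) goes against that, so the identity of degron (++) as PANC-1 is in doubt. The lower level in degron (−) also goes against such a loss in all of its cells. The identity of neither population was tested, and it bears on every comparison of the populations. CDKN2A was at 103 and 100.4 FPKM in degron (++) at 30 h and at 105 and 112 FPKM at 48 h. In degron (−) it was at 12.4 and 11.04 FPKM at 30 h and at 21.1 and 19.1 FPKM at 48 h, and at 18.8 and 15.2 FPKM in the unirradiated libraries. The summed level of the 9p21 genes CDKN2A, CDKN2B and MTAP in degron (−) was 15.4 to 16.1 FPKM at 30 h, 26.8 to 28.3 at 48 h and 20.4 to 24.5 without irradiation, against 129 to 144 in degron (++). The 10 genes that the study lists as highest in degron (++) likewise summed to 9.12 to 12.5 FPKM in degron (−) at 30 h and to 23.7 to 30.2 at 48 h. Their sum also rose in degron (++), from 263 to 271 FPKM at 30 h to 333.5 to 356 at 48 h, with 265 to 281 unirradiated. The median change was 0.36 in degron (−) and 0.30 in degron (++), and 0 of the 10 had an interaction past the threshold given below. That list was chosen by the study on unirradiated libraries of this series, so it is not independent evidence of a direction. Genes typical of degron (++) were thus higher in degron (−) at 48 h than at 30 h as a group, the part of this in the results below was not tested, and in bulk RNA more cells of a kind and more RNA per cell cannot be told apart.

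Of 12815 genes tested, 169 had an interaction past the threshold of an adjusted p of 0.05 (limma, Benjamini-Hochberg), which is 1.32% of the genes. For 155 of them the interaction was negative (1.21%) and for 14 it was positive (0.109%). At an unadjusted p under 0.05 there were 2266 genes. From 30 h to 48 h, 618 genes rose (4.82%) and 75 fell (0.585%) in degron (−), 5.41% of the genes tested in all. Rises were 89.2% of these calls, and 78.4% after quantile normalization. In degron (++) 27 genes rose (0.211%) and 22 fell (0.172%), 0.382% in all. The mean change over both populations was past the threshold for 566 genes (4.42%), of which 458 rose (3.57%) and 108 fell (0.843%). These numbers lean on single libraries. The interaction count was 4 without degron (++) 30 h replicate 1, 8 without replicate 2 of that group, 6 without degron (++) 48 h replicate 1 and 10 without its replicate 2. It was 18 without degron (−) 30 h replicate 1, 53 without its replicate 2, 203 without degron (−) 48 h replicate 1 and 46 without its replicate 2. Over the same 8 runs the mean change was called for 63 to 417 genes, the change in degron (−) for 174 to 497 and the change in degron (++) for 0 to 31. All 169 genes kept the sign of their interaction in each of the 8 runs, 117 were past the threshold in at least 1 run, and 3 small RNA genes (SNORD83B, SNORD89 and SNORA45) were past it in all 8. The 169 were chosen on these same libraries, so a kept sign was largely fixed by that choice and is not separate support. Nothing in the labels says that replicates were separate cultures, so the p-values measure only the spread between these libraries, which may be technical.

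**Figure D1:**
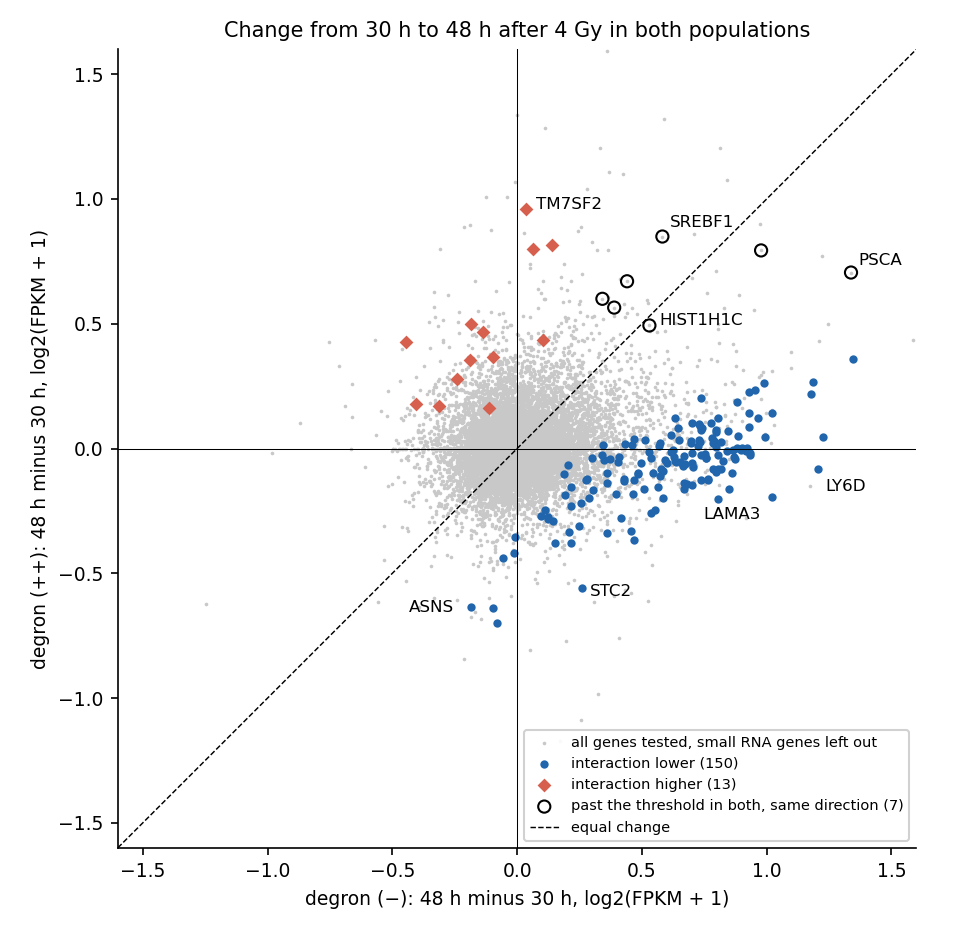
Change from 30 h to 48 h after 4 Gy in degron (−) (horizontal axis) and in degron (++) (vertical axis), both as a difference of log2(FPKM + 1), for 12647 genes with small RNA genes left out, of which 4 lie outside the axes. Blue points are the 150 genes with a negative interaction past the threshold, most of them to the right of 0 and level with it, red diamonds the 13 with a positive one, and open circles the 7 genes past the threshold in both populations in the same direction.

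Among the genes called, most of the difference lay in degron (−). Of the 155 genes with a negative interaction, 140 rose in degron (−), where 4.82% of all genes tested did. In degron (++) 11 of them fell, where 0.172% of all genes tested did. The change in degron (−) was the larger of the 2 for 137. The interaction that picked the 155 holds both changes, so these counts and the ratios that follow partly restate the choice. Leaving out small RNA genes, the interaction of the other 150 ranged from -1.28 to -0.27. Their median ratio of FPKM at 48 h to 30 h was 1.67 in degron (−) (quartiles 1.36 and 1.92) and 0.966 in degron (++) (quartiles 0.902 and 1.02). The genes concerned were mostly those that the populations express unequally. In the unirradiated libraries, which did not enter the fit, 151 of the 155 were higher in degron (++) (97.4%, against 48.4% of all genes tested). Of the 155, 147 moved in degron (−) toward the unirradiated level of degron (++) (94.8%, against 72.7% of all genes tested). The 155 were picked on an interaction that holds the change in degron (−), so this second share partly restates the choice and is not separate support.

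The same pattern held across the table. Of the 1424 genes more than 1 log2 unit higher in unirradiated degron (++), 131 had a negative interaction (9.20%), and their median change from 30 h to 48 h was 0.30 in degron (−) and 0.03 in degron (++). The 1759 genes more than 1 log2 unit higher in degron (−) had a median change of -0.12 in degron (−) and 0.00 in degron (++), and 2 of them had a negative and 5 a positive interaction. Across the genes tested other than small RNA genes, the change in degron (−) correlated with the unirradiated difference at r = 0.607 and the change in degron (++) at r = 0.051. These are correlations across genes, which are not independent replicates, and the libraries on the 2 axes are different ones. When only the 6362 genes within 0.5 log2 units of each other in the unirradiated libraries were tested, 6 interactions were past the threshold: BCL3 was positive, SNORD89 was positive, and GARS, CYGB, SNORD88B and SNORD83A were negative.

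**Figure D2:**
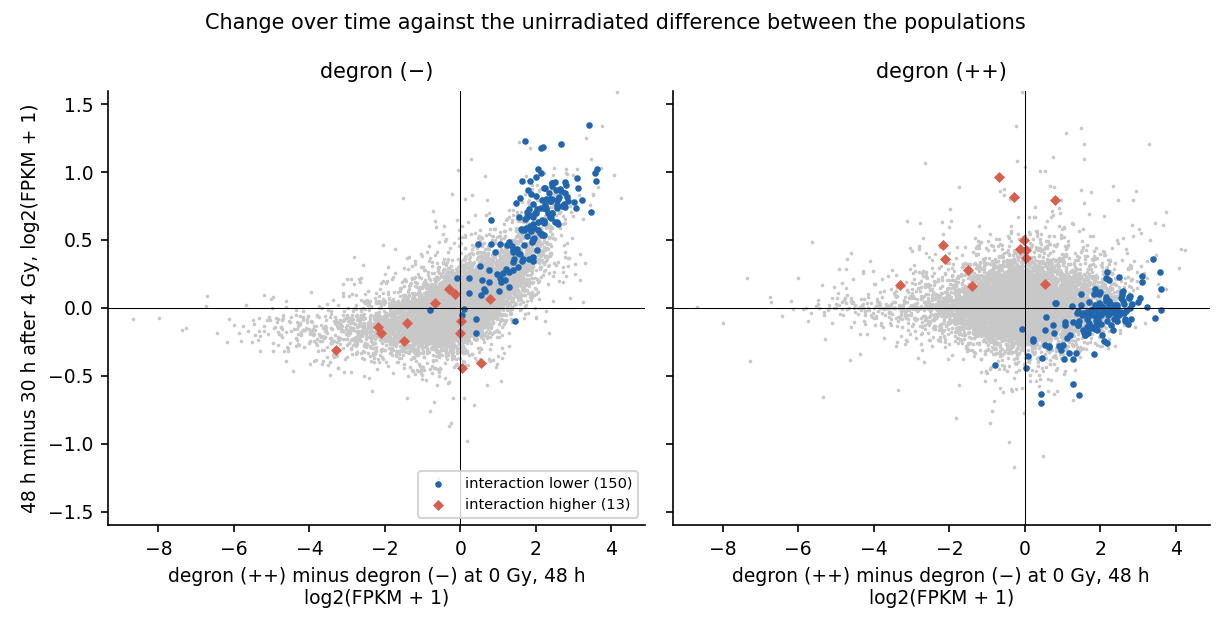
Change from 30 h to 48 h after 4 Gy in degron (−) (left) and degron (++) (right) against the difference between the populations at 0 Gy and 48 h, all on the log2(FPKM + 1) scale, 1 point a gene with small RNA genes left out. In degron (−) the genes that are higher in degron (++) drift upward, with the 150 genes of negative interaction in blue, and in degron (++) no such slope is seen (r = 0.607 and 0.051).

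A set chosen on the unirradiated libraries after the values were seen shows the size of this drift. For 31 genes more than 3 log2 units higher in degron (++), the median level in degron (−), as a percent of the unirradiated degron (++) level, was 4.62% and 5.51% in the libraries at 30 h and 10.3% and 12.2% in those at 48 h. In the unirradiated degron (−) libraries it was 7.68% and 5.88%, and these libraries took part in the choice. The 48 h libraries were above the 30 h and the unirradiated ones, with no overlap. In the other direction, 234 genes were more than 3 log2 units higher in degron (−). In degron (++) they stood at a median of 0.699% to 0.894% of the degron (−) level in all 4 libraries at 4 Gy. Both 48 h libraries were above both 30 h libraries. The unirradiated degron (++) libraries, which took part in the choice, had 0.819% and 0.792% and lay between the 48 h libraries, at 0.765% and 0.894%.

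Laminin-332 and its surroundings were among the genes whose course differed most. Of 34 tested genes of the basement membrane and matrix protease list, 6 had a negative (17.6%, against 1.21% of all genes tested) and 0 a positive interaction (limma, adjusted p under 0.05), with a median of -0.20 against -0.01 over all genes tested. Genes more than 1 log2 unit higher in unirradiated degron (++) had a negative share of 9.20%, and the list was not compared with genes of like level. In degron (−) 15 of the 34 rose (4.82% of all genes tested did), and in degron (++) none passed the threshold in either direction. LAMA3, the alpha 3 chain, was at 21.1 and 23.3 FPKM in degron (−) at 30 h and at 38.8 and 42.8 FPKM at 48 h. In degron (++) LAMA3 was at 154 and 153 FPKM at 30 h and at 137 FPKM in both libraries at 48 h. The unirradiated levels were 24.95 and 23.7 FPKM in degron (−) and 129 and 127 in degron (++). Both 48 h libraries of degron (−) thus lay above its 30 h and unirradiated libraries, while in degron (++) the 48 h libraries lay slightly below those of 30 h (change -0.16, not past the threshold). The interaction of LAMA3 was -1.01 (SE 0.086, limma adjusted p = 0.0129), and it passed the threshold in 4 of the 8 runs that left out a library. LAMB3, the beta 3 chain, went from 18.6 and 19.97 FPKM to 36.9 and 42.0 in degron (−), a ratio of 2.05, against a ratio of 1.03 in degron (++), with an interaction of -0.95 (SE 0.093, limma adjusted p = 0.0141). Both chains rose in degron (−), and neither change in degron (++) passed the threshold.

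Other members past the threshold were NID2 (-0.96), which encodes the laminin-binding nidogen 2, BMP1 (-0.53), a protease that processes laminin and collagen, and LAMB1 (-0.36), the beta 1 chain of other laminins. The calls of BMP1 and LAMB1 did not hold in any run that left out a library. ITGB4 had an interaction of -0.71 and missed the threshold (limma adjusted p = 0.0517). The promoter of LAMA3 is shown because its gene carries the largest interaction of the list and the window holds 2 matches to the AP-1 motif TGAGTCA, searched on both strands. They are in capitals in the 250 bases before the RefSeq start (GRCh38.p14, chr18:23872770-23873019, plus strand), where the first match is the reverse complement. The first match starts 125 and the second 69 bases before the start of the gene.
LAMA3: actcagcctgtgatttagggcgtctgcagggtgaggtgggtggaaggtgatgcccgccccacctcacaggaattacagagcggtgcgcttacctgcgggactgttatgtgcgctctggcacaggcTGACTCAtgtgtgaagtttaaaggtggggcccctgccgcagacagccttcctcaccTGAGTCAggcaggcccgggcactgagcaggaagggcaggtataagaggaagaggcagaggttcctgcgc
Among 96 genes of negative interaction whose promoter was in the RefSeq table, 6.25% held TGAGTCA in 300 bases, against 3.07% of the 9907 tested genes with an entry and 4.92% of all 27305 promoters. The match is a description of the letters and says nothing of binding.

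Epithelial junction and keratin genes had the highest share of differing courses among the 23 lists with 20 or more tested members. Of 40 tested, 9 had a negative (22.5%, against 1.21% of all genes tested) and 0 a positive interaction, with a median of -0.29. The negative share was 9.20% among genes more than 1 log2 unit higher in unirradiated degron (++). This list was not compared with genes of like level. In degron (−) 23 of the 40 rose (4.82% of all genes tested did), and in degron (++) 1 did, the stress keratin gene KRT17, which went from 1.41 and 1.42 to 3.82 and 4.55 FPKM (interaction 0.67, limma adjusted p = 0.0895) and was named after its values were seen. CDH1, which encodes E-cadherin, the adhesion molecule of adherens junctions, was at 6.56 and 6.79 FPKM in degron (−) at 30 h and at 11.7 and 12.8 at 48 h, with 8.36 and 7.69 in the unirradiated libraries. In degron (++) CDH1 stayed between 62.8 and 66.6 FPKM in all 6 libraries. Its interaction was -0.76 (SE 0.071, limma adjusted p = 0.0129), held in 3 of the 8 runs that left out a library. KRT7, a simple-epithelium keratin, went from 133 and 144 FPKM to 233 and 273 in degron (−) and stood at 1437 and 1328 FPKM and then 1247 and 1338 in degron (++). The interaction of KRT7 was -0.96 (limma adjusted p = 0.0252), and its unirradiated degron (−) levels of 199 and 173 FPKM lay between those of 30 h and 48 h. DSP, the desmosomal plaque protein desmoplakin, rose in degron (−) by a ratio of 1.62 (interaction -0.66, limma adjusted p = 0.0129), and DSG2, a desmosomal cadherin, by a ratio of 1.503 (-0.57). The remaining members past the threshold were ST14 (-0.90), which encodes the membrane protease matriptase, SPINT1 (-0.66), which encodes an inhibitor of matriptase, ESRP1 (-0.76), an epithelial splicing factor, GRHL2 (-0.72), a transcription factor of epithelial identity, and EPCAM (-0.69), an epithelial surface glycoprotein. KRT13 had an interaction of -1.15 that missed the threshold (limma adjusted p = 0.103). It was at 1.33 and 2.47 FPKM in degron (−) at 30 h, 6.38 and 8.89 at 48 h and 4.95 and 2.83 unirradiated, against 80.7 to 112 FPKM in degron (++).

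A single mesenchymal gene passed the threshold. CDH2, which encodes N-cadherin and belongs to the mesenchymal list, rose in degron (−) by a ratio of 1.83 with an interaction of -0.79 (limma adjusted p = 0.0249), and it too was higher in unirradiated degron (++), at 42.1 and 41.2 FPKM against 6.83 and 5.71. It was the only one of 26 tested mesenchymal genes past the interaction threshold (3.85%, against 1.32% of all genes tested). VIM had an interaction of -0.24 and SNAI2 of -0.60, and neither passed (limma adjusted p = 0.21 and 0.0639).

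The largest negative interactions outside these lists belonged to genes of varied function that shared the same course. LY6D, a surface protein of squamous and basal epithelium, was at 1.99 and 1.68 FPKM in degron (−) at 30 h and at 5.26 and 5.80 at 48 h, against 26.1 to 29.6 FPKM in degron (++) at 4 Gy. Its interaction of -1.28 (SE 0.118, limma adjusted p = 0.0129) was the most negative one outside small RNA genes. S100A9, a calcium-binding protein of inflamed epithelium and myeloid cells, went from 6.204 and 7.22 to 16.8 and 17.2 FPKM in degron (−), with an interaction of -1.18. ELF3, an epithelial ETS transcription factor, went from 3.05 and 3.39 to 8.60 and 10.9 FPKM in degron (−) (interaction -0.99), and DIO2, which activates thyroid hormone, from 17.5 and 18.2 to 39.3 and 44.1 FPKM (interaction -0.96). For S100A9 and ELF3 the unirradiated degron (−) levels were close to those of 48 h at 4 Gy, at 15.2 and 14.6 FPKM and at 8.14 and 7.01 FPKM. For DIO2 they were 23.9 and 21.5 FPKM and lay between the times. LETM2 (-1.22), RGS4 (-1.01), which encodes a regulator of G protein signalling, IGFBP7 (-0.95), a secreted growth factor binding protein, and LTBR (-0.93), the lymphotoxin beta receptor, completed the 12 most negative. LETM2 was listed near 1.13 FPKM in both degron (−) libraries at 30 h, where log2(FPKM + 1) understates a change. The interaction calls of LETM2, S100A9 and IGFBP7 did not hold in any run that left out a library.

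Signalling lists had 1 or 2 members each past the threshold, which is 2% to 8.70% of their tested members against 1.32% of all genes tested, and so near the background for several. They were F3 (tissue factor, -0.83) and PHLDB2 (-0.55) of 23 YAP and TAZ targets, INHBA (the activin beta A chain, -0.89) of 50 WNT and TGF-beta genes, TGFA (a ligand of the EGF receptor, -0.82) of 22 cytokines and chemokines, and DUSP4 (a MAP kinase phosphatase, -0.70) of 27 immediate early genes. Among 31 apoptosis regulators these were the death receptor TNFRSF21 (-0.63) and the BH3-only gene PMAIP1 (-0.59), and PMAIP1 is also the 1 of 33 p53 targets past the threshold. F3, for instance, was at 64.6 and 67.0 FPKM in degron (−) at 30 h, 111 and 120 FPKM at 48 h, and between 457 and 468 FPKM in all 4 libraries of degron (++) at 4 Gy. HSPB8 (-0.68) was the 1 of 25 heat shock genes past the threshold, MSLN (mesothelin, -0.63) and KRT7 were the 2 of 9 ductal markers, and CDKN2A (-0.64) was the 1 of 3 genes of 9p21. In these lists the shares were 4%, 22.2% and 33.3%, against 1.32% of all genes tested. When a library was left out, the interaction calls of PHLDB2, PMAIP1 and CDKN2A did not hold in any run. Of 47 interferon-stimulated genes, LGALS3BP (-0.69) and ISG15 (-0.43) had a negative interaction and IFITM2 (0.52) a positive one (6.38%, against 1.32% of all genes tested). ISG15, a ubiquitin-like protein, was at 76.5 and 74.9 FPKM in degron (−) at 30 h and 104 and 106 FPKM at 48 h, and at 175 to 181 FPKM in degron (++). OASL was at 2.25 and 2.89 FPKM and then 5.33 and 7.17 FPKM in degron (−), where the unirradiated libraries had 2.46 and 2.18. It differs from most of the genes above in being equal between the unirradiated populations, and its interaction of -0.99 did not pass (limma adjusted p = 0.07).

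A smaller group of genes differed because degron (++) fell. Of 38 tested genes of the unfolded protein and ATF4 list, 7 had a negative (18.4%, against 1.21% of all genes tested) and 0 a positive interaction, with a median of -0.18. In degron (++) 5 members fell (13.2%, against 0.172% of all genes tested). In degron (−) 6 members rose (4.82% of all genes tested did) and none fell. ASNS, asparagine synthetase, was at 91.2 and 98.3 FPKM in degron (++) at 30 h and at 60.6 FPKM in both libraries at 48 h, below the unirradiated 71.2 and 79.0. In degron (−) it was at 54.3 and 55.1 FPKM and then at 48.2 and 47.9, with 57.4 and 54.1 unirradiated. The change of ASNS was -0.64 in degron (++) (limma adjusted p = 0.00847) and -0.18 in degron (−) (limma adjusted p = 0.0576), and the interaction was -0.45 (SE 0.060, limma adjusted p = 0.0291). PSAT1, an enzyme of serine synthesis, was at 274 and 286 FPKM in degron (++) at 30 h and at 179 and 180 at 48 h, with 216 and 211 unirradiated. In degron (−) PSAT1 lay between 68.2 and 78.8 FPKM at 4 Gy, and its interaction was -0.54 (limma adjusted p = 0.0343). PHGDH, which catalyses the first step of serine synthesis, fell in degron (++) by 0.46, and its interaction of -0.38 missed the threshold (limma adjusted p = 0.0739).

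SLC3A2 and SLC7A5 encode the heavy and light chains of the transporter of large neutral amino acids. SLC3A2 fell in degron (++), from 448 and 444 to 346 and 362 FPKM, and rose in degron (−), from 152 and 160 to 178 and 183 FPKM, so that the interaction was -0.54 (SE 0.057, limma adjusted p = 0.0163). It passed the threshold in both populations in opposite directions, as only STC2 and SNORD89 did besides (0.0234% of the genes tested). The fall of SLC3A2 in degron (++) was not past the threshold in any run that left out a library, although its value stayed between -0.37 and -0.30. SLC7A5 went from 544 and 531 to 406 and 422 FPKM in degron (++) (change -0.38) and from 168 and 177 to 188 and 196 FPKM in degron (−), with an interaction of -0.53 (limma adjusted p = 0.0208). Unirradiated levels of both transporter genes in degron (++), 343 and 363 FPKM for SLC3A2 and 417 and 438 FPKM for SLC7A5, matched those of 48 h more closely than those of 30 h. The tRNA synthetase genes GARS and AARS are outside the list and were named after their values were seen. GARS fell in degron (++) from 191 and 197 to 144 and 142 FPKM, with 144 to 151 FPKM in degron (−) at 4 Gy (interaction -0.39, limma adjusted p = 0.0208). AARS had an interaction of -0.45 (limma adjusted p = 0.0239), with 109 and 108 and then 91.8 and 93.0 FPKM in degron (++) and with 72.1 and 71.9 and then 81.3 and 86.6 FPKM in degron (−). Of these genes SLC7A5 and SLC3A2 passed the interaction threshold in 2 of the 8 runs that left out a library, PSAT1, GARS and AARS in 1, and ASNS in none.

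The other members past the threshold followed the course described first, with a rise in degron (−) and no fall past the threshold in degron (++). They were CTH, an enzyme of cysteine synthesis (-0.88), XBP1, a transcription factor of the unfolded protein response (-0.38), and HSPA5, the chaperone BiP of the endoplasmic reticulum (-0.27). HSPA5 was at 187 FPKM in both degron (−) libraries at 30 h and at 213 and 218 at 48 h, and between 293 and 311 FPKM in degron (++) at 4 Gy. Neither the XBP1 nor the HSPA5 interaction call held in any run that left out a library.

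Some glycolytic and hypoxia genes also fell in degron (++). Of 38 tested, 5 had a negative (13.2%, against 1.21% of all genes tested) and 0 a positive interaction, and 5 fell in degron (++) (13.2%, against 0.172% of all genes tested). STC2, a secreted glycoprotein induced by hypoxia and by stress of the endoplasmic reticulum, was at 97.7 and 95.1 FPKM in degron (++) at 30 h and at 65.6 and 64.5 at 48 h, with 59.1 and 60.1 unirradiated. In degron (−) STC2 was at 25.7 and 26.1 FPKM and then at 30.6 and 32.0, with 23.4 and 24.7 unirradiated. The 2 libraries of each group lay close together, and no groups overlapped within a population. STC2 fell by 0.56 in degron (++) and rose by 0.26 in degron (−), and its interaction of -0.82 (SE 0.054, limma adjusted p = 0.0052) was past the threshold in 7 of the 8 runs that left out a library. LDHA, lactate dehydrogenase A, was at 1036 and 1041 FPKM in degron (++) at 30 h and at 813 and 811 at 48 h, next to unirradiated levels of 779 and 797. In degron (−) all 6 LDHA values lay between 717 and 745 FPKM. The interaction of LDHA was -0.34 (SE 0.046, limma adjusted p = 0.0294). NDRG1, a stress-responsive gene, went from 17.9 and 15.8 to 10.01 and 9.92 FPKM in degron (++), against 8.98 to 9.82 FPKM in degron (−) at 4 Gy, an interaction of -0.62 (limma adjusted p = 0.0422). P4HA1, a collagen prolyl hydroxylase subunit, went from 26.9 and 27.3 to 20.3 and 19.9 FPKM in degron (++), with 38.0 to 40.1 FPKM in degron (−) at 4 Gy (interaction -0.41). The interaction calls of LDHA, NDRG1 and P4HA1 held far less often than that of STC2 when a library was left out. The fifth member, SLC2A3, the glucose transporter GLUT3, belonged to the other kind: it rose in degron (−) by a ratio of 2.11 and had a ratio of 1.06 in degron (++) (interaction -0.84). In STC2, LDHA, NDRG1 and P4HA1 the 30 h libraries of degron (++) stood apart as high, and the other degron (++) libraries lay together.

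**Figure D3:**
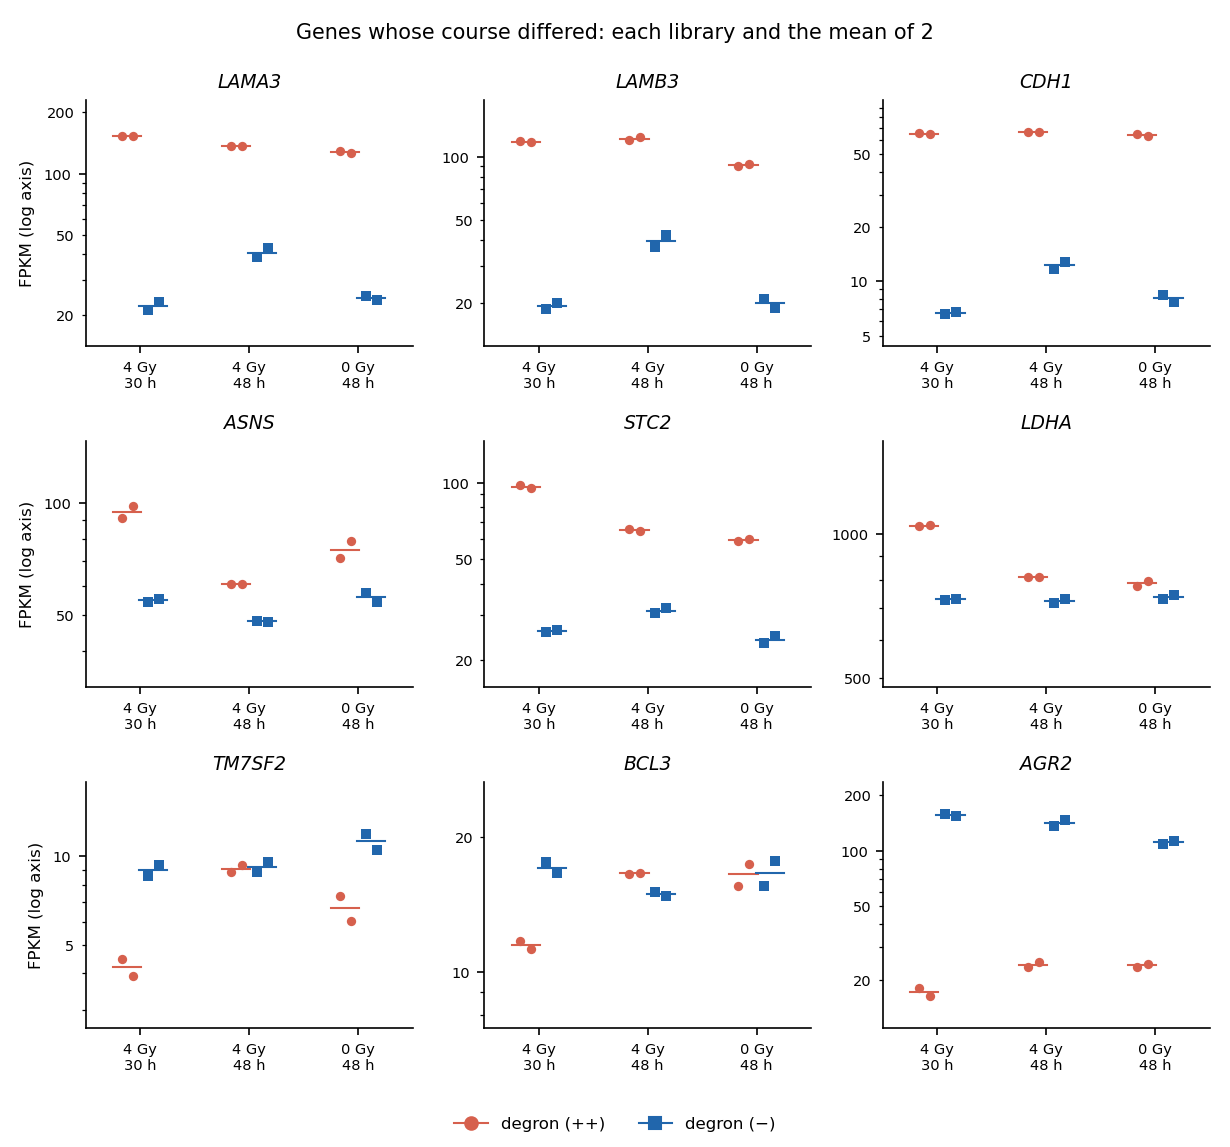
FPKM on a log axis of 9 genes in each library, with a bar at the mean of the 2 libraries, at 4 Gy and 30 h, 4 Gy and 48 h, and 0 Gy and 48 h. LAMA3, LAMB3 and CDH1 went up in degron (−, blue squares), ASNS, STC2 and LDHA went down in degron (++, red circles), and TM7SF2, BCL3 and AGR2 went up in degron (++).

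In the opposite direction 13 genes other than small RNA genes had a positive interaction, from 0.28 to 0.93, and 10 of them changed more in degron (++) than in degron (−). TM7SF2, a sterol reductase of cholesterol synthesis, was at 4.48 and 3.91 FPKM in degron (++) at 30 h and at 8.86 and 9.32 at 48 h, with 7.35 and 6.02 unirradiated. In degron (−) TM7SF2 was at 8.59 and 9.36 FPKM and then at 8.86 and 9.56, so the populations were apart at 30 h and overlapped at 48 h. Its interaction was 0.93 (SE 0.112, limma adjusted p = 0.0223), past the threshold in 1 of the 8 runs that left out a library. BCL3, an atypical IkB protein that acts with NF-kB in the nucleus, was at 11.7 and 11.2 FPKM in degron (++) at 30 h and at 16.6 and 16.7 at 48 h. In degron (−) BCL3 went from 17.6 and 16.6 to 15.1 and 14.8 FPKM, and the unirradiated libraries lay between 15.6 and 17.7 in both populations. The value that stood apart in BCL3 was thus degron (++) at 30 h, which was low, and the interaction was 0.68 (SE 0.069, limma adjusted p = 0.0156).

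RAB26, a small GTPase of secretory vesicles, rose in degron (++) from 6.47 and 5.53 to 11.1 and 11.5 FPKM (interaction 0.68), and PALM3 rose from 2.11 and 2.17 to 4.70 and 4.24 FPKM (interaction 0.73). AGR2, a protein disulfide isomerase of secretory epithelium, rose in degron (++) from 18.04 and 16.4 to 23.3 and 25.01 FPKM, and was far higher in degron (−), at 157 and 154 and then 137 and 146 FPKM (interaction 0.60). CITED2, a transcriptional coregulator, and MYEOV also rose in degron (++), with ratios of 1.30 and 1.36 and interactions of 0.47 and 0.33. In CKB and DHRS4 the larger change was a fall in degron (−). CKB, creatine kinase B, went from 145 and 148 to 121 and 115 FPKM there (interaction 0.49), and DHRS4 (0.59) was at a low level of at most 4.92 FPKM in degron (−) at 4 Gy. IFITM2 (0.52), DUSP9 (0.54) and FLOT1 (0.28, named after its value was seen) passed the interaction threshold with no change past the threshold in either population alone. The interaction calls of RAB26, PALM3, AGR2, CITED2, MYEOV, DHRS4, IFITM2 and DUSP9 did not hold in any run that left out a library.

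**Figure D4:**
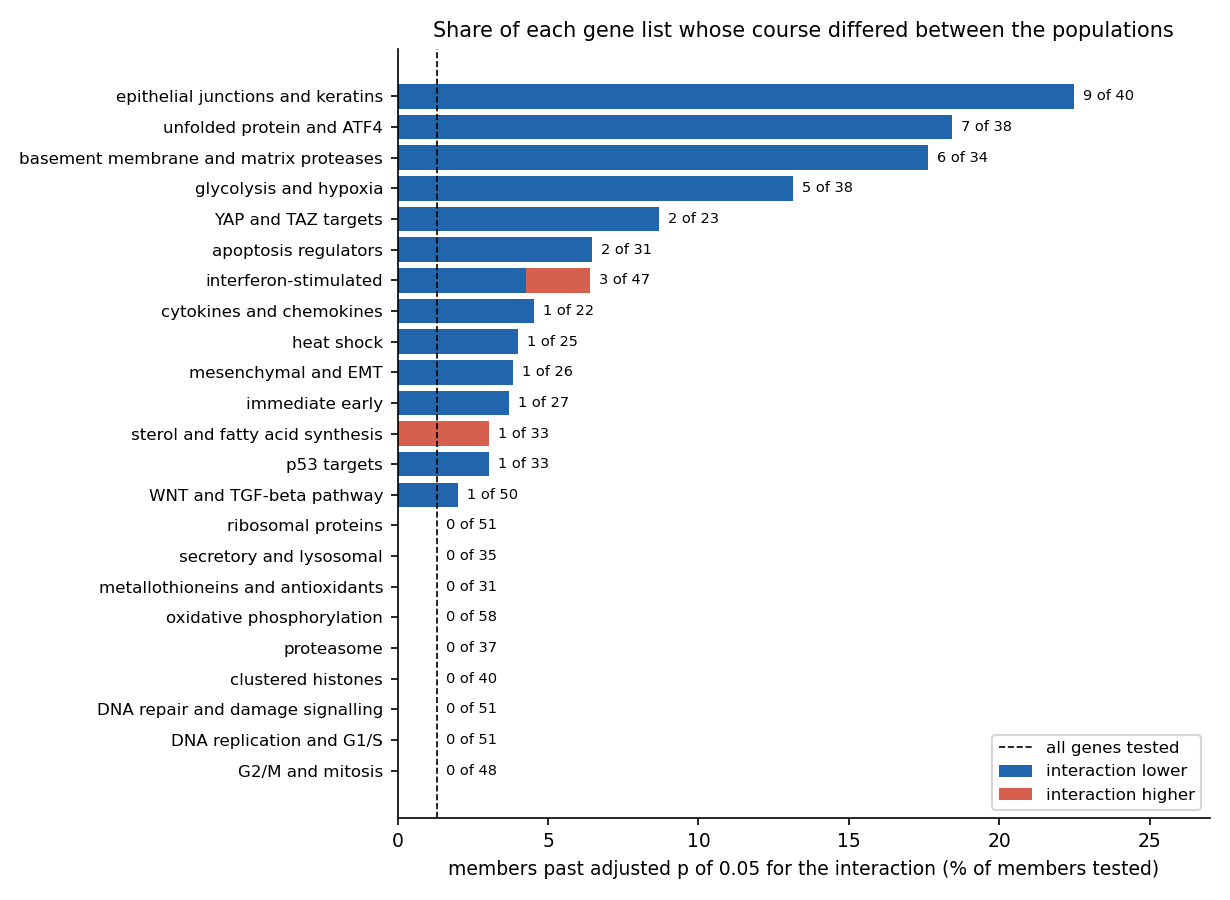
Percent of the tested members of 23 gene lists whose interaction was past the threshold, negative in blue and positive in red, with the number of members beside each bar. The dashed line is the 1.32% of all genes tested, and 9 lists had 0 members past the threshold.

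Several lists linked to irradiation had no or few members past the interaction threshold. For lists of this size that is near the share of all genes tested, so it is no result about these lists. None of 48 tested G2/M and mitosis genes, 51 DNA replication genes and 51 DNA repair genes had an interaction past the threshold (limma, adjusted p under 0.05, against 1.32% of all genes tested). The medians of the interaction were -0.08, -0.01 and 0.00 in these lists. The 95% interval of the interaction lay inside ±0.5 for 45, 50 and 45 of them, against 70.1% of all genes tested. PLK1, a mitotic kinase, had an interaction of -0.27 (interval -0.43 to -0.11, limma adjusted p = 0.113), and BRCA1, a repair factor, of -0.44 (interval -0.69 to -0.18, limma adjusted p = 0.103). None of 37 proteasome subunits, 58 oxidative phosphorylation genes, 51 ribosomal protein genes, 35 lysosomal genes, 31 metallothionein and antioxidant genes and 40 clustered histone genes passed either. Only 3 of the 40 clustered histone genes had an interval inside ±0.5, so a difference there could be missed. Among p53 targets, CDKN1A, the p21 inhibitor, was at 8.92 and 7.55 FPKM and then 9.42 and 8.82 in degron (++), and at 75.8 and 74.8 and then 67.0 and 61.6 in degron (−), with an interaction of 0.36 (interval 0.09 to 0.63, limma adjusted p = 0.171).

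Genes that moved together were fewer by the strictest reading. In all, 8 genes passed the threshold in both populations in the same direction (0.0624% of the genes tested), all of them rising. They were CLIC3, PSCA, SREBF1, NEAT1, HIST1H1C, FILIP1L, SAT1 and the small nuclear RNA gene SCARNA7, and the mean change of each was past the threshold in all 8 runs that left out a library. The separate calls that define this group held less often: the call in degron (++) was past the threshold in 0 of the 8 runs for PSCA, SREBF1 and FILIP1L, in 2 for CLIC3 and NEAT1 and in 4 for HIST1H1C, SAT1 and SCARNA7, and the call in degron (−) in 0 for FILIP1L, in 4 for SREBF1, NEAT1 and SAT1 and in 8 for the others. SCARNA7 was listed at 0 in every 30 h library and at only 1.15 to 1.43 FPKM at 48 h after 4 Gy. Its calls thus rest on pairs of zeros and on values near the floor. SREBF1 was at 31.2 and 28.4 FPKM in degron (++) at 30 h and at 49.8 and 59.6 at 48 h, and at 10.9 and 11.8 and then 16.5 and 18.3 FPKM in degron (−). The mean change of SREBF1 was 0.72 (SE 0.069, limma adjusted p = 0.00779) and the interaction 0.27, with an interval of -0.06 to 0.60. NEAT1, the long noncoding RNA of paraspeckles, went from 85.5 and 77.2 to 137 and 123 FPKM in degron (++) and from 81.5 and 74.3 to 107 and 105 FPKM in degron (−), so that the populations overlapped at 30 h and degron (++) was the higher at 48 h (mean change 0.56, interaction 0.23, interval -0.02 to 0.48). The 48 h levels of both genes in degron (++) lay nearer to the unirradiated ones, 68.9 and 75.7 FPKM for SREBF1 and 120 and 121 FPKM for NEAT1, than the 30 h levels did.

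HIST1H1C, a linker histone, rose by a ratio of 1.41 in degron (++), from 114 and 106 to 156 and 153 FPKM, and by 1.46 in degron (−), from 33.0 and 34.3 to 48.8 and 49.3. Its interaction was -0.04 with an interval of -0.19 to 0.11, the narrowest of the 8. Here the 48 h libraries at 4 Gy were also above the unirradiated ones, which had 96.4 and 95.2 FPKM in degron (++) and 36.0 and 30.6 in degron (−). SAT1, which acetylates spermidine and spermine, rose by ratios of 1.53 in degron (++) and 1.27 in degron (−). Its interaction of 0.26 missed the threshold (limma adjusted p = 0.181), but the interval of 0.06 to 0.45 excludes 0. FILIP1L rose by ratios of 1.59 in degron (++) and 1.45 in degron (−) (interaction 0.18, interval -0.08 to 0.43). CLIC3, a chloride intracellular channel protein, rose by ratios of 1.76 and 2.13 (interaction -0.18, interval -0.50 to 0.13). PSCA, prostate stem cell antigen, went from 26.5 and 22.8 to 38.8 and 42.8 FPKM in degron (++) and from 1.55 and 1.34 to 5.09 and 5.26 FPKM in degron (−), an interaction of -0.63 that missed the threshold (limma adjusted p = 0.0672, interval -0.93 to -0.33).

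**Figure D5:**
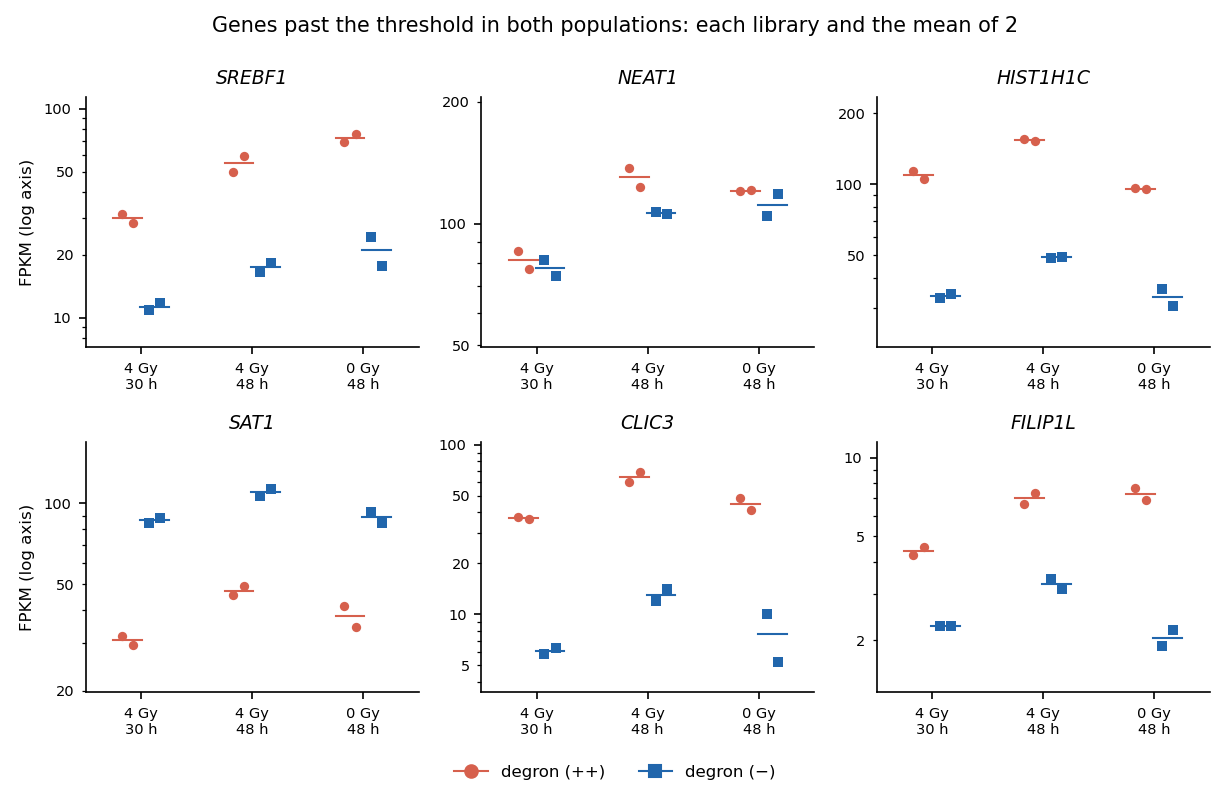
FPKM on a log axis of 6 genes that rose in both populations, in each library with a bar at the mean of the 2 libraries, at 4 Gy and 30 h, 4 Gy and 48 h, and 0 Gy and 48 h. Each gene is higher at 48 h than at 30 h after 4 Gy in both libraries of degron (++, red circles) and of degron (−, blue squares).

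Over a wider reading, 268 genes had a mean change past the threshold and an interaction whose 95% interval lay inside ±0.5 log2 units, 177 of them higher and 91 lower at 48 h. Such an interval was found for 70.1% of all genes tested, and 117 of the 566 genes with a mean change also had an interaction past the threshold. The 268 were not cleared of genes with an interaction past the threshold. LDHA, GARS and MYEOV, named above for courses that differed, are among them, so the 268 include genes whose change differed in size. Of 33 tested genes of sterol and fatty acid synthesis, 15 rose in the mean change (45.5%, against 3.57% of all genes tested) and none fell, with a median of 0.22. Of these 15, 9 had an interaction interval inside ±0.5. The shares that rose in the mean change were close to this in the epithelial list (17 of 40) and the basement membrane list (14 of 34), but there only 1 and 3 of the rising genes had such an interval. Besides SREBF1 and TM7SF2 they included SCD (0.41), HMGCS1 (0.40), FASN (0.30) and SREBF2 (0.28). SCD, a fatty acid desaturase, had ratios of 1.45 in degron (++) and 1.22 in degron (−). FASN, fatty acid synthase, had ratios of 1.24 and 1.22, with an interaction of 0.02. TM7SF2 was the 1 member whose course differed past the threshold.

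Of 40 tested clustered histone genes 6 rose in the mean change (15.0%, against 3.57% of all genes tested) and none fell, with a median of 0.38 in the list. Besides HIST1H1C these were HIST1H2BG (0.997), HIST1H4H (0.93), HIST1H3H (0.69), HIST2H2BE (0.53) and HIST1H2BK (0.22). Their mRNAs mostly lack a poly(A) tail while the kit selects for one, and near-identical copies share reads, so these values are uncertain, and only 3 of the 40 had an interaction interval inside ±0.5. Of 51 DNA replication genes 3 fell (5.88%, against 0.843% of all genes tested), RRM2 (-0.21), PRIM2 (-0.22) and RFC4 (-0.14). Of 31 metallothionein and antioxidant genes 4 fell (12.9%, against 0.843% of all genes tested) and none rose. Among the 4 were the ferritin chains FTH1 (-0.26) and FTL (-0.21) and the NRF2 target NQO1 (-0.22). FTH1 went from 531 and 548 to 418 and 441 FPKM in degron (++) and from 413 and 397 to 363 and 351 FPKM in degron (−), so the times did not overlap in either population. In the interferon-stimulated list 8 of 47 rose in the mean change (17.0%, against 3.57% of all genes tested) and none fell. Among the 8 were IFIT2 (0.50) with an interaction of -0.06 and IFITM1 (0.40) with an interaction of 0.02, and LGALS3BP and ISG15, whose courses differed.

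Small RNA genes gave the largest numbers and the least firm values. A library made from poly(A) RNA recovers such short transcripts poorly, and 1 fragment of so short a gene weighs many FPKM. Of 168 tested, 6 had an interaction past the threshold, where 1.32% of all genes tested did. SNORD83B was listed at 0 in both degron (−) libraries at 30 h and at 540 and 388 FPKM at 48 h, with 420 to 672 FPKM in degron (++) at 4 Gy (interaction -8.91). SNORD83A (-8.35), SNORD88B (-7.59) and SNORA45 (-4.68) were also listed at 0 in degron (−) at 30 h and above 0 in all other groups. SNORD89 was listed at 0 in degron (++) at 30 h and in degron (−) at 48 h, and MIR641 (-8.23) in degron (++) at 48 h. SNORD89 stood at 50.2 and 47.0 FPKM in degron (++) at 48 h and at 134 and 47.2 in degron (−) at 30 h (interaction 11.97). A value of 0 was read only as listed at 0, and these estimates depend on the pseudocount.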

How the data were processed

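RNA of 12 libraries was extracted with a miRNeasy Micro kit and made into libraries with a stranded mRNA kit. The deposited values are FPKM per gene symbol, made by the authors. The submitters' processing notes name TopHat2 2.1.1, Bowtie2 2.2.8, SAMtools 0.1.18, Cuffdiff 2.2.1 and build hg19, whereas parameters and annotation are not given in the sources used here. The read depth is unknown, so no intervals for counting error are given, and FPKM is relative to each library's total.

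From these, log2(FPKM + 1) was tested in R 4.3.3 with limma 3.58.1 (trend, 4 group means, 8 libraries at 4 Gy, no covariate) for the 12815 of 23284 symbols that reached FPKM 1 in 2 or more of the 8 libraries. Residual degrees of freedom were 4. The threshold was a Benjamini-Hochberg adjusted p of 0.05 over all genes tested. A log2 change on this scale understates the change of low genes, while ratios are of mean FPKM. The scripts were tested on simulated data. Summaries used Python 3.11.15, pandas 2.3.3, numpy 2.4.6 and scipy 1.17.1, and figures matplotlib 3.10.9.

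The rule for named genes took the 12 most positive and 12 most negative interactions past the threshold, up to 6 small RNA genes, genes past the threshold in both populations, and in each gene list the members past the threshold and up to 4 of largest interaction. Other genes, among them members named for their mean change, were named after their values were seen. Members, lists and tests were chosen with earlier results of these data known. Y-linked genes were left out of the text, and some results that enter the counts, or that the rule would name, are not reported here. Promoters are from RefSeq (GRCh38.p14), matched by symbol only. Alternatives were the pseudocount, the filter, quantile and TPM scaling, the prior, the replicate block, all 12 libraries, no small RNA genes, genes alike at 0 Gy, separate fits and leaving out each library.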

Additional observations from a re-analysis of the deposited data

Results flagged for a closer look

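The course from 30 h to 48 h after 4 Gy differed between the populations for 169 genes by the test of the difference itself, the interaction term of the limma fit. The values below are interactions on the log2(FPKM + 1) scale. Groups of 2 libraries were too small for a check of single libraries that stand apart.

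Among the most negative were LY6D (-1.28), LETM2 (-1.22), S100A9 (-1.18), LAMA3 (-1.01), RGS4 (-1.01), ELF3 (-0.99), DIO2 (-0.96), NID2 (-0.96), KRT7 (-0.96), IGFBP7 (-0.95), LAMB3 (-0.95) and LTBR (-0.93). Among the most positive were TM7SF2 (0.93), PALM3 (0.73), BCL3 (0.68), RAB26 (0.68), AGR2 (0.60), DHRS4 (0.59), DUSP9 (0.54), IFITM2 (0.52), CKB (0.49), CITED2 (0.47) and MYEOV (0.33).

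In the epithelial and matrix lists the others were ST14 (-0.90), ESRP1 (-0.76), CDH1 (-0.76), GRHL2 (-0.72), EPCAM (-0.69), DSP (-0.66), SPINT1 (-0.66), DSG2 (-0.57), CDH2 (-0.79), BMP1 (-0.53) and LAMB1 (-0.36). In the stress and metabolic lists they were STC2 (-0.82), SLC3A2 (-0.54), CTH (-0.88), PSAT1 (-0.54), SLC7A5 (-0.53), ASNS (-0.45), XBP1 (-0.38), HSPA5 (-0.27), HSPB8 (-0.68), SLC2A3 (-0.84), NDRG1 (-0.62), P4HA1 (-0.41) and LDHA (-0.34). Signalling, interferon and marker genes were INHBA (-0.89), F3 (-0.83), TGFA (-0.82), DUSP4 (-0.70), LGALS3BP (-0.69), TNFRSF21 (-0.63), PMAIP1 (-0.59), PHLDB2 (-0.55), ISG15 (-0.43), CDKN2A (-0.64) and MSLN (-0.63). Small RNA genes, each listed at 0 in at least 1 group, were SNORD89 (11.97), SNORD83B (-8.91), SNORD83A (-8.35), MIR641 (-8.23), SNORD88B (-7.59) and SNORA45 (-4.68).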

How the results depend on the processing

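The interaction count of 169 became 273 with a pseudocount of 0.1 in place of 1, 55 with no filter on low values, 273 with a filter at FPKM 5, 63 without the trend in the limma prior, 432 with all 12 libraries in the fit, 462 without small RNA genes and 6 among genes within 0.5 log2 units at 0 Gy. The mean change (566) was called for 323 genes with no filter, 359 after rescaling to TPM, 873 with all 12 libraries and 878 without small RNA genes. The degron (++) count of 49 became 26 with no filter, 30 after rescaling to TPM, 15 without the trend, 170 with all 12 libraries, 147 without small RNA genes and 13 in a fit of its own 4 libraries. The degron (−) count of 693 became 56 in a fit of its own 4 libraries. The cause of these shifts was not tested. Leaving out 1 library at a time, where the lone library is assumed to vary like the other groups, gave 4 to 203 genes for the interaction, 63 to 417 for the mean change, 0 to 31 for degron (++) and 174 to 497 for degron (−).

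With the replicate number as a block the counts were 113 for the interaction, 415 for the mean change, 25 for degron (++) and 530 for degron (−). The labels do not say that numbers pair libraries, and same-numbered libraries of different groups deviated together only weakly (r of -0.0329 to 0.144 across 12815 genes).

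Of the 169 genes, 36 were past the threshold in all 9 alternatives that kept all 8 libraries. No named result past the threshold changed direction in 1241 values under 18 alternatives, of which 543 missed the threshold. The alternatives reuse the libraries on which these results were chosen, so a kept direction is not separate support. The depth behind a value is unknown, and with 2 libraries a group small changes of low genes could not be resolved.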
